A study of Mus musculus with 15 samples.

Results

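Smooth muscle contractile genes were followed in the ovaries of 15 mice: Acta2, Myh11, Tagln, Cnn1, Actg2, Des, Lmod1, Synpo2, Mylk and Smtn. These 10 genes were chosen by symbol, and all 10 were found among the 27907 genes of the normalized counts and had a mean above the minimum of 2 that 21525 genes passed. Whole ovaries of 7 HSD17B1-KI and 8 WT females, 6 months old and in estrus, were sequenced as 1 stranded mRNA library per mouse. HSD17B1-KI females were homozygous for HSD17B1 Ser143Ala, a CRISPR/Cas9 point mutation in the active site of the steroid enzyme HSD17B1 carried in all cells, and WT females came from the same heterozygous breeding. A change of 1 amino acid cannot be read from gene counts, so the genotype labels were not checked here. Hsd17b1 itself had 5459 to 17386 normalized counts in HSD17B1-KI and 6480 to 14111 in WT.

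Smooth muscle contracts when calcium and calmodulin switch on a kinase that phosphorylates the light chain of myosin, which then pulls on actin filaments, and a phosphatase reverses this step. The contractile genes share control by serum response factor (SRF) and its partner myocardin, which act through a DNA element named the CArG box. In the ovary, smooth muscle is known from the walls of arteries and from the outer layer of the theca around follicles, and pericytes of small vessels also make part of this set. In whole ovaries, fewer smooth muscle cells and less RNA per cell cannot be told apart.

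The CArG box was searched on either strand in the 250 bases before the start of transcription, taken from the RefSeq promoter table of GRCm38.p6. The table held 7 of the 10 genes, all but Myh11, Tagln and Actg2. A box of CC, A or T letters alone and GG was in 0 of the 7 and in 1.47% of 32851 promoters. When at most 1 G or C was allowed among the middle letters, Acta2 was the 1 gene of the 7 with a match, against 8.59% of all promoters, and it had 2 boxes. Both lie on the minus strand of chromosome 19, from 84 to 75 and from 34 to 25 bases before the RefSeq start, and inside a longer first exon (34255290 to 34255590) that GENCODE release M21 draws for Acta2. The 30 bases around each box are shown 5′ to 3′ with the box in capitals, and a match of letters is a description and no evidence of binding.
Acta2 distal box, chr19:34255438-34255467, minus strand: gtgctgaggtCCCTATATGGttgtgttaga
Acta2 proximal box, chr19:34255388-34255417, minus strand: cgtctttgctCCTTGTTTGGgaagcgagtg

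Values are normalized counts, the reads of a gene divided by 1 size factor per library. HSD17B1-KI libraries held 39092867 to 69972608 reads on genes and WT libraries 26544745 to 72362981, and the 10 genes together took 0.118% to 0.229% of the reads in HSD17B1-KI and 0.141% to 0.227% in WT. At this depth every one of the 10 genes had at least 411 normalized counts in each mouse. Nothing in the labels or columns marked a batch, and log2 values of any 2 libraries correlated across genes with r between 0.925 and 0.989. Markers of oocytes (7633 to 14198 summed normalized counts), granulosa cells (64188 to 199401), luteal cells (47247 to 212300) and ovarian stroma (64256 to 153758) were present in every mouse. Endothelial markers summed to 17535 to 27412, macrophage markers to 6208 to 11535 and pericyte markers to 10812 to 20336, and 0 genes of these 7 lists were DE genes by limma-trend or DESeq2 (1, Tcf21 of the stroma, had an unadjusted limma-trend p under 0.05). Markers of striated muscle, which shares part of the contractile machinery, summed to 222 to 383 in HSD17B1-KI and 246 to 358 in WT, against 55649 to 109232 and 66093 to 107524 for the 10 genes. Oviduct markers, led by Ovgp1, summed to 925 to 27430 in HSD17B1-KI and 1014 to 238475 in WT. Aldh1a1 was the most abundant theca marker, with a mean over all mice of 159931 normalized counts, against 18864 for Cyp17a1. Theca markers summed to 182189 to 354566 in HSD17B1-KI and 121956 to 177047 in WT. Of the 8, 7 had a higher mean in HSD17B1-KI. Of these, 2 (Aldh1a1 and Hsd3b6) passed adjustment over all genes by limma-trend and 3 by DESeq2, and 0 genes in all passed by limma-trend with the replicate number as a block.

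Levels were compared between genes per kilobase (kb) of exon, with all annotated exons of a gene merged, from 1557 bases for Actg2 to 13089 for Synpo2. Which transcripts were in use was not determined, so the order depends in part on the annotation. Acta2 (smooth muscle alpha-actin) was the most abundant, with a mean of 9549 normalized counts per kb, and Tagln (transgelin, which binds actin) followed with 6469. Actg2 (the gamma-actin of visceral smooth muscle) and Myh11 (the smooth muscle myosin heavy chain) came next at 2169 and 2013. Smtn (smoothelin, a cytoskeletal protein of contractile cells) had 1232 and Mylk (myosin light chain kinase) 1228. Cnn1 (calponin, an inhibitor on the thin filament) had 760, Des (desmin, the muscle intermediate filament) 677, Lmod1 (leiomodin, which starts actin filaments) 284 and Synpo2 (synaptopodin 2, an actin-bundling protein) 70.8. The order held in all 15 mice for Acta2 over Tagln, Tagln over Actg2, Myh11 over Smtn, Mylk over Cnn1 and Lmod1 over Synpo2. It did not separate Actg2 from Myh11, where 8 of 15 mice had the higher value for Actg2, or Smtn from Mylk (10 of 15), and Cnn1 was above Des in 12 and Des above Lmod1 in 14. Acta2 and Actg2 encode close paralogs, but their transcripts shared 0 stretches of 50 bases, and 0.326% of such stretches of Acta2 also occurred in Actg1. Tagln, Des, Lmod1, Synpo2, Mylk and Smtn overlap other annotated genes, and since it is not stated whether counting used the strand, their counts are uncertain to that extent.

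**Figure D1:**
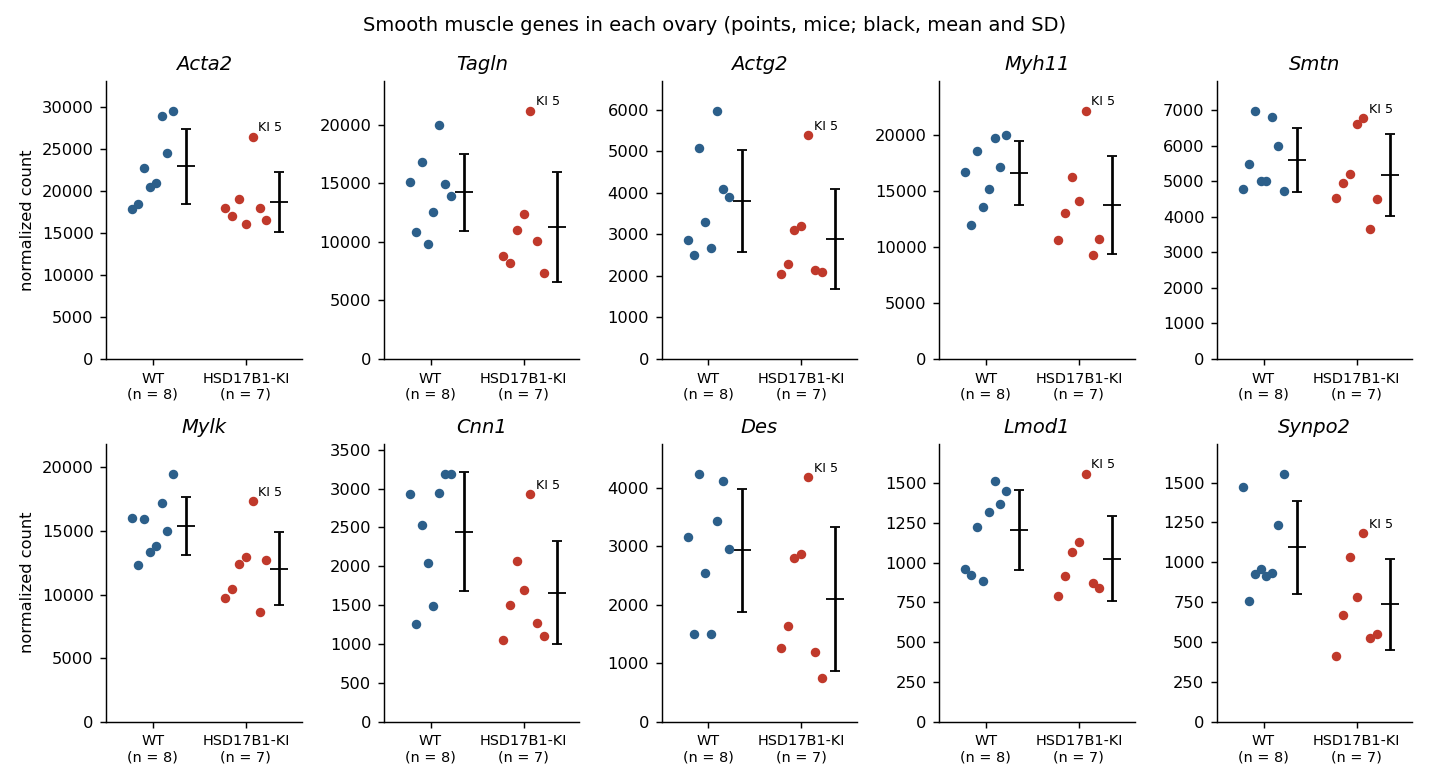
Normalized count of each smooth muscle gene in each ovary, on a linear axis that starts at 0. Points are mice, and the black marks are the mean and SD of 8 WT and 7 HSD17B1-KI mice. HSD17B1-KI 5 is labelled: it had the highest value of its genotype for all 10 genes, and HSD17B1-KI and WT overlapped for each gene.

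Between the genotypes, all 10 smooth muscle genes had a lower mean in HSD17B1-KI than in WT, and none of them was a DE gene. DE genes were those with an adjusted p under 0.05 in limma-trend on log2(normalized count + 1), fitted over 21525 genes with genotype as the term. That rule called 0.214% of all tested genes, 45 higher and 1 lower. Adjusted p-values of the 10 genes ran from 0.322 to 0.797, and 0 were called by edgeR (adjusted p of 0.325 or more, 0.232% of all genes called) or DESeq2 (0.192 or more, 2.3% of the genes with an adjusted p called). The log2 difference of HSD17B1-KI minus WT had a median of -0.38 over the 10 genes, beside -0.02 over all genes, of which 55.2% were below 0. Without adjustment, 4 of the 10 genes had a p under 0.05, all lower in HSD17B1-KI, where 4.64% of all genes did so. The same mice supply all 10 values, so that they are not independent.

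Of the proteins that drive the filament, Mylk (ENSMUSG00000022836, chromosome 16, 34745210 to 35002420), the kinase that starts contraction, ran from 8636 to 17364 normalized counts in HSD17B1-KI (median 12428). In WT it ran from 12364 to 19522 (median 15453). Of the HSD17B1-KI mice, 3 were below every WT mouse and 1 WT mouse was above every HSD17B1-KI mouse. HSD17B1-KI averaged 12039 ± 2873 (SD, n = 7) and WT 15402 ± 2300 (SD, n = 8), a log2 difference of -0.38 (SE 0.13, 95% confidence interval -0.66 to -0.09, limma-trend adjusted p = 0.322). Myh11 (ENSMUSG00000018830, chromosome 16, 14194535 to 14291372), the motor itself, ran from 9287 to 22193 (median 13072) in HSD17B1-KI and from 12022 to 20021 (median 16946) in WT. The highest of all 15 values was that of HSD17B1-KI 5, and 3 HSD17B1-KI mice were below every WT mouse. Its log2 difference was -0.31 (SE 0.17, interval -0.67 to 0.04, limma-trend adjusted p = 0.567).

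Among the thin filament genes, Acta2 (ENSMUSG00000035783, chromosome 19, 34241090 to 34255590) ran from 16055 to 26460 (median 17994) in HSD17B1-KI, and from 17822 to 29540 (median 21831) in WT. Of the HSD17B1-KI mice, 6 lay between 16055 and 19002, and HSD17B1-KI 5 stood above them. HSD17B1-KI averaged 18725 ± 3555 (SD, n = 7) and WT 22933 ± 4448 (SD, n = 8), and the log2 difference was -0.29 (SE 0.13, interval -0.56 to -0.02, limma-trend adjusted p = 0.463). Cnn1 (ENSMUSG00000001349, chromosome 9, 22099216 to 22109630) ran from 1051 to 2930 (median 1505) in HSD17B1-KI and from 1256 to 3194 (median 2731) in WT, and 3 WT mice were above every HSD17B1-KI mouse. Its log2 difference was -0.57 (SE 0.25, interval -1.09 to -0.04, limma-trend adjusted p = 0.458). Tagln, Actg2 and Lmod1 had log2 differences of -0.39, -0.41 and -0.24 with intervals that included 0. Smtn had the smallest difference of the 10, -0.13 (interval -0.41 to 0.15), with 3648 to 6773 normalized counts in HSD17B1-KI and 4732 to 6976 in WT, and it was -0.051 without HSD17B1-KI 6.

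Synpo2 and Des, which bundle and anchor filaments, had the lowest log2 differences by limma-trend. The place of Des depended on the method. By DESeq2 the log2 difference was -0.557 for Cnn1 and -0.482 for Des, and by edgeR it was -0.556 and -0.481. Synpo2 (ENSMUSG00000050315, chromosome 3, 123076519 to 123236149) ran from 411 to 1183 (median 668) in HSD17B1-KI and from 756 to 1556 (median 945) in WT. Of the HSD17B1-KI mice, 4 were below every WT mouse and 3 WT mice were above every HSD17B1-KI mouse. HSD17B1-KI averaged 736 ± 283 (SD, n = 7) and WT 1093 ± 292 (SD, n = 8), a ratio of 0.673 and a log2 difference of -0.62 (SE 0.22, interval -1.09 to -0.15, limma-trend adjusted p = 0.324). Des (ENSMUSG00000026208, chromosome 1, 75360329 to 75368579) varied most between mice, 5.72-fold from the lowest to the highest of the 15, with 742 to 4184 normalized counts in HSD17B1-KI and 1495 to 4244 in WT. Its log2 difference of -0.61 (SE 0.35, interval -1.34 to 0.13) has an interval that includes 0, and it was -0.39 without HSD17B1-KI 7. Acta2 varied least, 1.84-fold.

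HSD17B1-KI 5 had the highest value of its genotype for 10 of the 10 genes. Without that mouse the log2 differences ran from -0.81 to -0.20 and 9 of 10 had an unadjusted p under 0.05, beside 5.71% of all genes lower at that level, but 0 had an adjusted p under 0.05, where 0.645% of all genes did, and the lowest, that of Mylk, was 0.0827 (limma-trend). In WT the highest value was that of WT 8 for 4 genes, WT 6 for 3, WT 3 for 2 and WT 7 for 1. WT 2 had the lowest value for 6 of the 10. The direction of all 10 differences was kept in the 15 fits that left out 1 mouse each. In these fits Mylk and Synpo2 had an unadjusted p under 0.05 in all 15, and Acta2 and Cnn1 in 6. Tagln, Actg2 and Myh11 had one in 2, Des and Lmod1 in 1 and Smtn in 0. Of all genes, 756 (of 21529, without HSD17B1-KI 2) to 1231 (of 21540, without HSD17B1-KI 5) were lower at that level. Synpo2 no longer had an unadjusted p under 0.05 when both WT 1 and WT 8, its 2 highest mice (1471 and 1556), were left out. There all 10 differences stayed negative, and Acta2 and Mylk alone had an unadjusted p under 0.05, beside 868 of 21342 genes lower at that level. None of the 10 passed adjustment in that fit (lowest limma-trend adjusted p = 0.535).

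Markers of fat, of the ovarian surface and of the oviduct also had negative log2 differences for most of their genes. Of 7 adipocyte markers, 6 were lower and 1 (Plin1) higher in HSD17B1-KI, each with an unadjusted p under 0.05, and their sum ran from 3202 to 18942 in HSD17B1-KI and from 5222 to 23946 in WT (median log2 difference -1.62). All 7 surface epithelium markers were lower, 3 of them (Krt8, Msln and Upk1b) with an unadjusted p under 0.05, and summed to 11207 to 16877 against 12699 to 36492 (median log2 difference -0.31). All 10 oviduct markers were lower, none with an unadjusted p under 0.05 by limma-trend or an adjusted one by DESeq2, with a median log2 difference of -0.91. Of all tested genes, 55.2% had a log2 difference below 0. By limma-trend, 4.64% were lower and 5.36% higher with an unadjusted p under 0.05. Ovgp1 had a mean of 4887 in HSD17B1-KI and 46139 in WT (log2 difference -1.96, SE 1.77). The lowest limma-trend adjusted p of the fat markers was 0.328, of the surface markers 0.365 and of the oviduct markers 0.640. Over the 15 mice, r with the mean of the 10 muscle genes ran from 0.53 for Lep to 0.68 for Retn over the 6 lower adipocyte markers and was -0.34 for Plin1. It ran from 0.19 for Lhx9 to 0.76 for Upk3b over the surface markers, and from -0.02 for Tekt1 to 0.29 for Sox17 over the oviduct markers. Other tissue lists also had high or low r. Stroma markers ran from -0.48 for Tcf21 to 0.68 for Col1a1, and oocyte markers from -0.74 for Zp2 to -0.43 for Bmp15. Theca markers ran from -0.79 for Insl3 to 0.09 for Thbd, and luteal markers from -0.76 for Lhcgr to 0.01 for Star. Pericyte markers ran from 0.18 for Pdgfrb to 0.65 for Abcc9. The part of fat, surface, oviduct or other tissue in the muscle gene values was not tested.

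**Figure D2:**
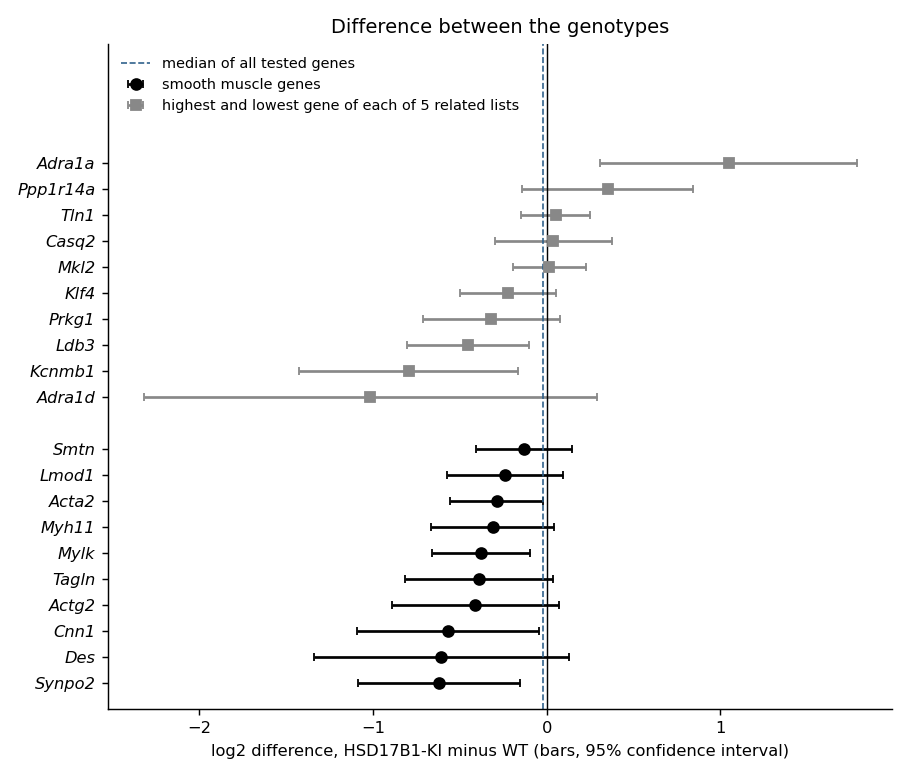
Log2 difference of HSD17B1-KI minus WT with its 95% confidence interval from limma-trend, for the 10 smooth muscle genes (black) and for the highest and lowest gene of each of 5 related lists (grey). All 10 black points lie left of 0, from -0.62 for Synpo2 to -0.13 for Smtn, and 6 of their intervals include 0.

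The wider contraction pathway was described with 57 further genes in 5 lists. All 57 were tested and 0 were DE genes by limma-trend (lowest adjusted p = 0.243), edgeR or DESeq2, with 44 lower and 13 higher in HSD17B1-KI and a median log2 difference of -0.13. Without adjustment, 10 had a p under 0.05 and were lower, and 2 had one and were higher, beside 4.64% and 5.36% of all genes. The partners of the filaments, 20 genes for tropomyosins, myosin light chains, adhesion and Z-disc proteins, had a median of -0.19 with 18 lower. Their lowest was Ldb3, a Z-disc protein, at 185 ± 55.8 normalized counts in HSD17B1-KI against 248 ± 40.2 in WT (SD, n = 7 and 8, also below). That log2 difference was -0.45 (SE 0.17). Their highest was Tln1, talin, with 19530 ± 2538 and 18805 ± 2167. Myl9, the regulatory light chain that Mylk phosphorylates, had 7570 ± 1304 in HSD17B1-KI and 8276 ± 1935 in WT, a log2 difference of -0.11 (interval -0.41 to 0.18, limma-trend adjusted p = 0.837).

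The 10 genes that control myosin phosphorylation had a median log2 difference of -0.09. Ppp1r14a, an inhibitor of myosin phosphatase, had the highest, 0.35 (SE 0.23, 0.22 without HSD17B1-KI 2), with 1821 ± 729 normalized counts in HSD17B1-KI against 1353 ± 303 in WT, and Prkg1, the cGMP kinase that relaxes smooth muscle, the lowest, -0.32 (SE 0.19, -0.20 without HSD17B1-KI 1 and -0.21 without WT 8). The 9 genes of calcium and potassium handling had a median of -0.20. Kcnmb1, the smooth muscle subunit of the calcium-activated potassium channel, ran from 193 to 429 (median 286) in HSD17B1-KI and from 299 to 1270 (median 414) in WT. WT 1 (1061) and WT 8 (1270) stood above all other mice, whose highest value was 519. Its log2 difference was -0.79 (SE 0.30, limma-trend adjusted p = 0.352). Casq2, calsequestrin, was the highest of this list at 0.039 (SE 0.16).

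The transcription factors were close to even, with a median of -0.07 over 5 genes, from -0.22 for Klf4 to 0.015 for Mkl2, a cofactor of SRF. Each interval included 0. The 13 ligands and receptors of contraction held both extremes. Adra1a, an alpha-1 adrenergic receptor, ran from 29.3 to 76.1 in HSD17B1-KI and from 6.60 to 45.7 in WT, a log2 difference of 1.05 (SE 0.35, limma-trend adjusted p = 0.277). Its paralog Adra1d had 54.8 to 327 against 44.9 to 803 and a log2 difference of -1.01 (SE 0.62). Adra1a had few reads, with a mean of 39.8 normalized counts over all mice against 223 for Adra1d, and neither was called. Rgs5, a pericyte marker, had 3394 ± 835 normalized counts in HSD17B1-KI and 3754 ± 954 in WT, a log2 difference of -0.14 (interval -0.50 to 0.22).

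Whether the genes vary together from mouse to mouse was asked with Myh11 as the reference. All 45 pairs of the 10 genes correlated positively over the 15 mice on the log2 scale, with a median r of 0.79, from 0.40 for Synpo2 with Smtn to 0.91 for Cnn1 with Des. With Myh11, r ran from 0.71 to 0.90 over the other 9 genes (Spearman's coefficient 0.64 to 0.93). Permutation p-values were 1e-05 for Mylk, the smallest that 100000 resamples can give, to 0.00349 for Smtn, and 0.0646 to 0.160 after adjustment over 21524 genes. All 9 had an unadjusted p under 0.05, as had 7.11% of all genes in the positive direction. Without HSD17B1-KI 5 and HSD17B1-KI 6, the mice farthest from the median of Myh11, r was 0.51 for Smtn and 0.78 to 0.93 for the other 8. Scaling by 1 factor per library is shared by all genes of a mouse.

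Within HSD17B1-KI (n = 7), r with Myh11 ran from 0.74 to 0.95 and 8 of 9 genes had an exact permutation p under 0.05, beside 4.5% of all genes. Within WT (n = 8), r ran from 0.34 for Smtn to 0.94 for Mylk and 7 of 9 did so, beside 2.02%. After adjustment over all genes, 0 of the 9 passed in either genotype, and 0 of all genes did. With 7 or 8 mice the smallest exact permutation p is too large for 1 gene alone to pass, so this count says little about the 9. Without HSD17B1-KI 5 and HSD17B1-KI 6, the HSD17B1-KI mice farthest from their median of Myh11, r over the other 5 was 0.31 for Acta2, 0.44 for Mylk, 0.64 for Smtn and 0.74 to 0.998 for the other 6. Without WT 2 and WT 4, r over 6 WT mice was 0.18 for Synpo2, 0.37 for Smtn, 0.45 for Lmod1 and 0.61 to 0.89 for the other 6. Smtn followed Myh11 in HSD17B1-KI (Pearson's r = 0.86, Spearman's coefficient 0.93) and had an r of 0.34 in WT (Spearman's coefficient 0.10, exact permutation p = 0.409), and the difference between these coefficients was not tested.

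With genotype as a term, the slope on Myh11 gave the change of a gene per log2 unit of Myh11. It was 1.77 for Des (SE 0.30), 1.32 for Cnn1 (SE 0.19) and 1.19 for Actg2 (SE 0.19), against 0.53 for both Smtn (SE 0.16) and Acta2 (SE 0.15). None of the 9 slopes passed adjustment over 21524 genes (limma-trend adjusted p of 0.0537 to 0.201), where 0.0% of all genes did. All 9 had an unadjusted p under 0.05 in the positive direction, beside 6.83% of all genes. The call depended on single mice, with 4 of 9 called without WT 1 (0.042% of all genes) and 1 of 9 without HSD17B1-KI 6 (0.00464%), HSD17B1-KI 7 (0.00929%) or WT 5 (0.00464%). Without the 4 mice lowest in Cyp17a1 described below, 6 of 9 slopes kept an unadjusted p under 0.05, beside 4.02% of all genes in the positive direction.

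**Figure D3:**
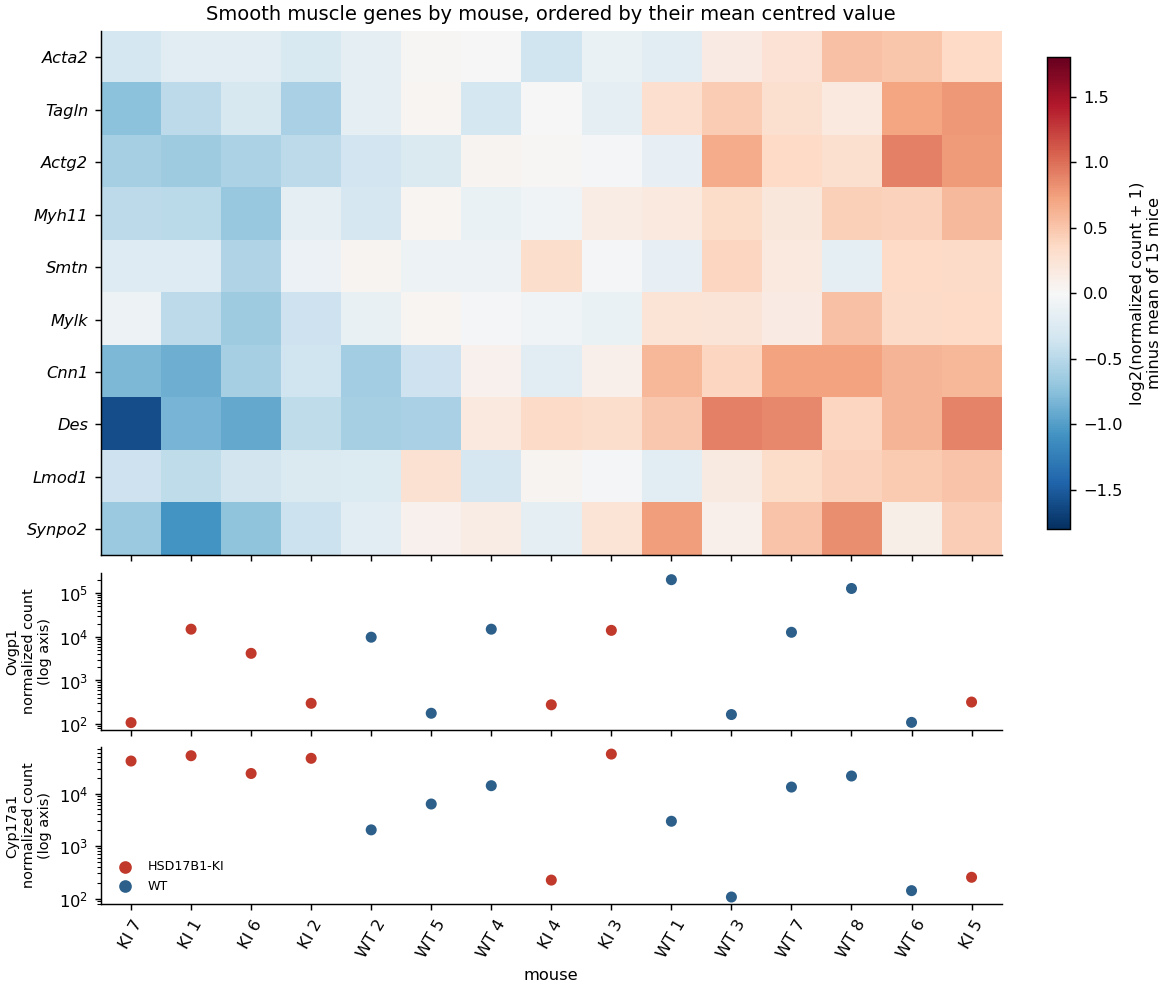
Log2(normalized count + 1) of the 10 smooth muscle genes minus the mean of the 15 mice (colour), with mice ordered by the mean of these values, above the normalized counts of Ovgp1 and Cyp17a1 in the same mice on log axes. HSD17B1-KI 7, 1 and 6 are the lowest and HSD17B1-KI 5, WT 6 and WT 8 the highest. The mice at 107 to 254 normalized counts of Cyp17a1 are HSD17B1-KI 4, HSD17B1-KI 5, WT 3 and WT 6.

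The genes most like the set, among those on none of the lists, were ranked by r with the mean of the 10 centred log2 values over the 15 mice. They were Prune2 (r = 0.93), Mustn1 (0.92), Postn (0.92), Spon2 (0.89), Hspb7 (0.88), Asb2 (0.88), Cilp (0.87), Syt1 (0.87), Slit2 (0.86) and Scn2b (0.86). Postn, a matrix protein of connective tissue, ran from 389 to 2778 normalized counts in HSD17B1-KI and from 1056 to 2744 in WT. Prune2 ran from 221 to 955 and from 454 to 910. Of the pathway lists, the filament partners had the highest median r with the set, 0.58, and ran from -0.02 to 0.87 (Ldb3). Calcium and potassium handling was close, with a median of 0.55 and a range of -0.05 to 0.78. The transcription factors had the lowest median, 0.13.

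Of the 8 theca markers, Cyp17a1, the enzyme of androgen synthesis, was followed. Cyp17a1 ran from 224 to 56551 normalized counts (median 41683) in HSD17B1-KI, and from 107 to 21605 (median 4644) in WT. HSD17B1-KI 4, HSD17B1-KI 5, WT 3 and WT 6 had 107 to 254, and the other 11 had 2033 or more. The 8 theca markers together summed to 182189 or more in each HSD17B1-KI mouse and to 121956 or more in each WT mouse. Whether these 4 mice held less theca was not tested. Over all 15 mice, with genotype as a term, the slope on Cyp17a1 was negative for all 10 muscle genes. It passed adjustment for Smtn (-0.0662 per log2 unit of Cyp17a1, SE 0.0134, limma-trend adjusted p = 0.00286), Tagln (-0.0947, SE 0.0225, adjusted p = 0.00837) and Actg2 (-0.0992, SE 0.0275, adjusted p = 0.0206). This rule called 18.2% of all 21524 genes, 9.99% with a negative slope, so that 3 of 10 is to be read against that share.

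The slope rested on the 4 mice. Smtn had 6596, 6773, 6976 and 6799 normalized counts in HSD17B1-KI 4, HSD17B1-KI 5, WT 3 and WT 6, and 3648 to 5989 in the other 11 mice. These were the 4 highest values of Smtn. For Tagln and Actg2, 3 of the 4 mice (HSD17B1-KI 5, WT 3 and WT 6) were above all others, and HSD17B1-KI 4 lay among them with 12348 and 3214. Acta2, Cnn1, Synpo2 and Mylk had 0 of the 4 above all others. When the 4 mice were left out, 0 of 10 slopes and 0.0185% of all genes passed, and with genotype as a term all 10 slopes turned positive, from 0.0125 for Tagln to 0.267 for Des (limma-trend adjusted p of 0.131 to 0.978).

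Without the genotype term, over the same 11 mice, r of the 10 genes with Cyp17a1 ran from -0.57 for Tagln to -0.10 for Acta2 (Spearman's coefficient from -0.56 to -0.23). Of these, 0 had a permutation p under 0.05 (0.0675 to 0.790, or 0.388 and more after adjustment over all genes), where 7.48% of all genes had one with a negative r. Without WT 1 and WT 2, the 2 mice farthest from the median of Cyp17a1, r was -0.62 to -0.25. The sign within the 11 mice thus depended on whether genotype was in the model. The 5 HSD17B1-KI mice among them had 24106 to 56551 normalized counts of Cyp17a1 and the 6 WT mice 2033 to 21605, and these ranges did not overlap. In the 11 mice the log2 difference of HSD17B1-KI minus WT was -0.87 to -0.18 over the 10 genes, and 9 had an unadjusted p under 0.05, where 6.17% of all genes were lower at that level, but 0 passed adjustment (limma-trend adjusted p of 0.137 to 0.465), where 0.361% of all genes did. Genotype and the level of Cyp17a1 cannot be told apart there.

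**Figure D4:**
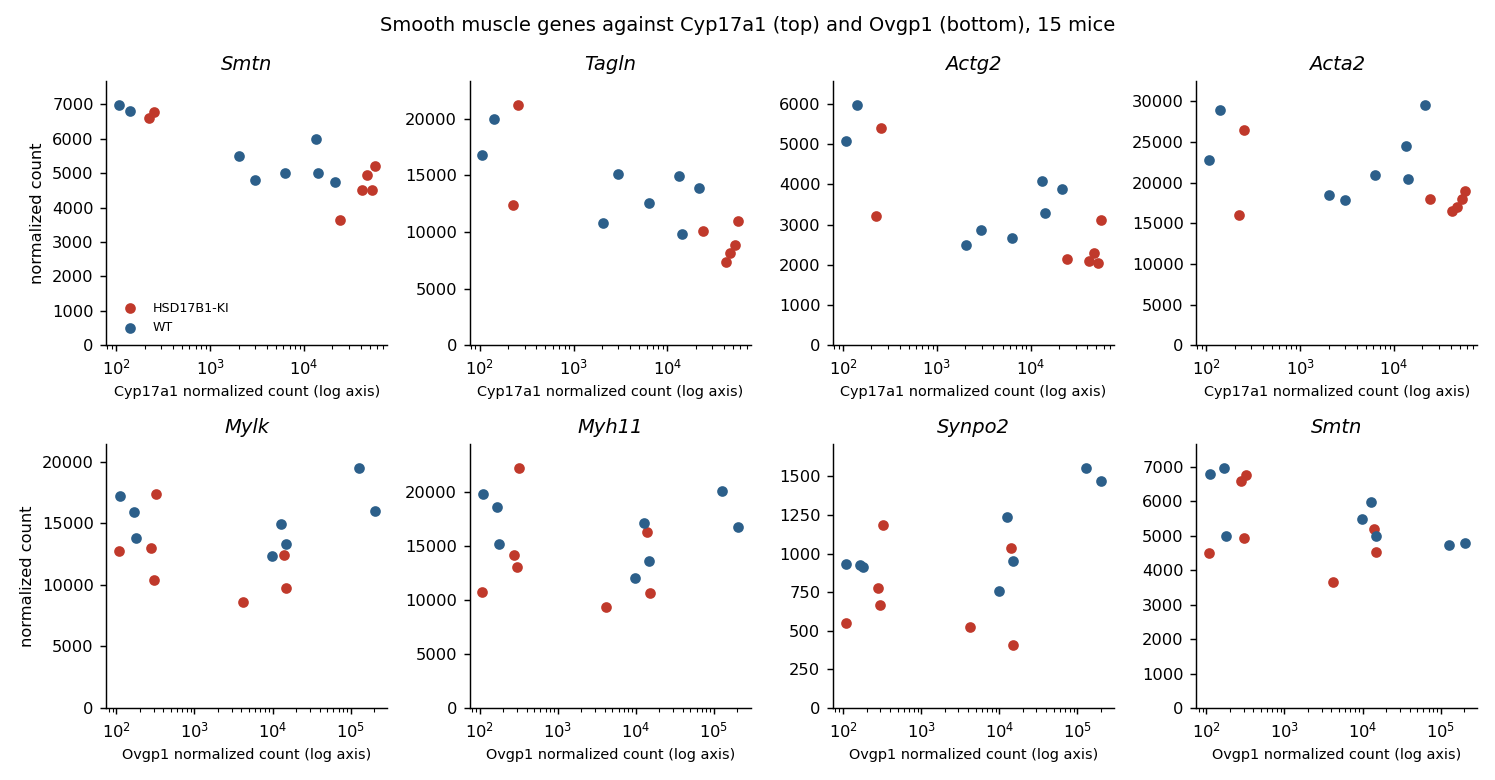
Normalized counts of smooth muscle genes (linear axes that start at 0) against those of Cyp17a1 (top) and Ovgp1 (bottom) on log axes, 1 point per mouse, HSD17B1-KI in red and WT in blue. The 4 mice with 107 to 254 normalized counts of Cyp17a1 hold the 4 highest values of Smtn, from 6596 to 6976, and WT 1 and WT 8, at the right of the lower panels, hold the 2 highest of Synpo2.

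Oviduct tissue was followed through Ovgp1, the glycoprotein secreted by the oviduct, whose wall holds smooth muscle. The 15 mice fell into separate groups on Ovgp1, 7 with 108 to 321 normalized counts (HSD17B1-KI 2, 4, 5 and 7, WT 3, 5 and 6) and 8 with 4185 to 203321. For that reason no correlation of each of the 10 genes with Ovgp1 over all mice is given. Myh11 ran from 10754 to 22193 with a median of 15165 in the 7 mice and from 9287 to 20021 with a median of 14942 in the 8. Smtn had medians of 6596 and 4895, Acta2 of 20903 and 18732, and Synpo2 of 914 and 995, and the groups overlapped for all 10 genes. With genotype as a term, 7 of 10 slopes on Ovgp1 were negative and 3 positive, and 0 passed adjustment (limma-trend adjusted p of 0.154 to 0.964), while 10.9% of all genes did. Smtn alone had an unadjusted p under 0.05, with a slope of -0.038 (SE 0.016). Of 21524 genes, 2281 had one with a negative slope and 3072 with a positive slope. Without WT 1 and WT 8 all 10 slopes were negative, with a median of -0.039 against -0.013 over all mice. Of these 10, 0 had an unadjusted p under 0.05, where 4156 of 21341 genes did.

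Within the 7 mice low in Ovgp1, r of the 10 genes with Ovgp1 ran from -0.25 to 0.34 and 0 had an exact permutation p under 0.05, beside 1.82% of all genes in the positive and 1.34% in the negative direction. Within the 8 mice high in Ovgp1, r was positive for all 10 genes, from 0.12 for Smtn to 0.80 for Mylk, while Spearman's coefficient ran from -0.21 to 0.67. Mylk (exact permutation p = 0.0193), Myh11 (p = 0.0434) and Synpo2 (p = 0.0482) had a p under 0.05, which 12.8% of all genes had with a positive r, and after adjustment over all genes the lowest was 0.193. WT 1 and WT 8 were farthest from the median, with 203321 and 127890 normalized counts of Ovgp1. Synpo2 had 1471 and 1556 in these mice, above all other 13 (411 to 1235). Without them, over 6 mice, r fell from 0.65 to 0.064 for Tagln, from 0.66 to 0.35 for Cnn1, from 0.71 to 0.37 for Synpo2 and from 0.40 to 0.19 for Lmod1. It was 0.63 for Mylk and 0.64 for Myh11, and it rose from 0.12 to 0.69 for Smtn. For Acta2, Actg2 and Des it was 0.34, 0.46 and 0.53, against 0.36, 0.41 and 0.55 with them. The 8 mice hold 3 HSD17B1-KI and 5 WT, and the 3 HSD17B1-KI mice had 4185 to 14963 normalized counts of Ovgp1.

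With either tissue gene as a covariate, the 10 differences between the genotypes stayed below 0. With log2 Ovgp1 they ran from -0.60 to -0.20, with a median of -0.42. There 4 had an unadjusted p under 0.05, beside 1179 of 21525 genes lower at that level. With log2 Cyp17a1 they ran from -0.58 to -0.0051 (Smtn), and the median was -0.24, against -0.38 without a covariate. In that fit 2 of 10 (Mylk and Synpo2) had an unadjusted p under 0.05, beside 1580 of 21525 genes lower at that level. Acta2 and Cnn1 no longer had one. None of the 10 passed adjustment in either fit (lowest limma-trend adjusted p of 0.279 and 0.238), where 39 and 286 of 21525 genes did.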

How the data were processed

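Ovarian mRNA of 7 HSD17B1-KI and 8 WT mice was sequenced, 1 library each. The authors demultiplexed (bcl2fastq 2.20), trimmed and aligned the reads to mm10 (STAR 2.7.3), counted them on genes, and deposited 1 normalized signal per gene and mouse, a count divided by a size factor. The counting program, its strand setting and the annotation release are not given in the sources used here. All deposited values (100%) were within 0.02 of whole multiples of 1 step per library, so whole reads were recovered for edgeR and DESeq2.

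The main test was limma-trend on log2 values with a pseudocount of 1, for genes whose mean over all mice was 2 or more, two-sided, with Benjamini-Hochberg adjustment over all of them. Slopes on Myh11, Ovgp1 and Cyp17a1 were fitted in the same way with genotype as a term, leaving out the gene itself. With a pseudocount, log2 differences understate changes of low genes. Correlations with Myh11, Ovgp1 and Cyp17a1 used exact permutation for up to 8 mice and 100000 resamples for more. No pooled correlation of single genes with these 3 was given where the largest gap between mice on the log2 scale was over 0.333 of the range with at least 2 mice on each side. Cyp17a1 lay just under that limit (0.332) and was treated as separate, a choice made after its values were seen. The limit was not applied to slopes, or to r of other genes with the mean of the 10 genes, which used all 15 mice. Depth was 26544745 to 72362981 reads, and p-values measure the spread between mice. The 10 genes, the pathway lists and the marker lists were chosen with earlier results of these data known. The text names the 10 genes, the highest and lowest log2 difference of each pathway list (since none passed), Ovgp1, Cyp17a1, Myl9 and Rgs5, and the 10 genes outside the lists with a mean of 10 or more most like the set. Hsd17b1, Aldh1a1, Hsd3b6 and single markers of the tissue lists were named besides. Alternatives were other pseudocounts (0.1 and 10), filters (none, or a mean of 10), upper quartile and quantile normalization, array weights, edgeR with TMM, DESeq2, a replicate block, covariates, no genotype term, a threshold of 0.1, and fits without each mouse in turn. Leaving out WT 1 and WT 8, and the 4 mice lowest in Cyp17a1, was added after seeing the data. The fits and permutations were tested on simulated data. Of the 27907 identifiers, 27533 had a position in GENCODE release M21. The marker Adgre1 was not found under that symbol, which left 4 macrophage markers. Python 3.11.15 (SciPy 1.17.1, pandas 2.3.3, NumPy 2.4.6) and R 4.3.3 (DESeq2 1.42.0, limma 3.58.1, edgeR 4.0.16) were used.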

Additional observations from a re-analysis of the deposited data

Results flagged for a closer look

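Both Acta2 and Prkg1 had 1 value that stood far from the rest of their genotype on the log2 scale, by Dixon's ratio of the gap to the range, among 44 gene and genotype combinations examined; chance alone flags about 1 in 20. Acta2 was 26460 normalized counts in HSD17B1-KI 5, where the next highest of the 7 was 19002 and the lowest 16055. Prkg1 was 312 normalized counts in WT 8, where the next highest of the 8 was 207 and the lowest 145.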

How the results depend on the processing

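The comparison of the genotypes gave 0 called genes, for the 10 smooth muscle genes and for the 57 pathway genes, under every alternative run, and so did the slope on Ovgp1. The 10 differences also kept their sign throughout. The slope on Myh11 moved: 0 of 9 genes passed in the main test (0 of 21524 genes in all), 3 with a pseudocount of 10 or with a mean of at least 10 (6 in all for either), 1 with quantile normalization (1 in all) or without WT 1 and WT 8 (3 in all), 5 with array weights (12 in all) or at an adjusted p under 0.1 (11 in all), 7 without the genotype term (22 in all), and 0 to 4 when each mouse was left out. The slope on Cyp17a1 gave 3 of 10 genes (3912 in all), 1 with the replicate block (1778 in all), 0 without the 4 mice lowest in Cyp17a1 (4 in all), and 1 to 3 without each mouse (1 without HSD17B1-KI 5); the cause was not tested. Replicate numbers do not pair the mice: same-numbered mice had correlations of -0.55 to 0.55 and 1 of 7 numbers was its own best match, and the replicate block changed no other count of calls among the 10 genes or the pathway genes. Over all genes it lowered the calls between the genotypes from 46 to 0 and those of the slope on Ovgp1 from 2345 to 199. The calls between the genotypes were 28 with no filter or with quantile normalization, 125 with array weights, 456 by DESeq2, 286 with Cyp17a1 as a covariate, 78 without the 4 mice and 9 without WT 1 and WT 8, and leaving out each mouse gave 6 (HSD17B1-KI 2) to 139 (HSD17B1-KI 5). The slope on Ovgp1 had 1715 positive and 630 negative calls, and 1470 and 1754 with quantile normalization. Its calls were 665 without WT 1 and WT 8 and 967 without the 4 mice, and those of the slope on Cyp17a1 were 6032 with array weights.

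Without the 4 mice lowest in Cyp17a1, slopes on Cyp17a1 reversed to 0.157 for Acta2, 0.148 for Myh11, 0.0125 for Tagln, 0.246 for Cnn1, 0.189 for Actg2, 0.267 for Des, 0.133 for Lmod1, 0.155 for Synpo2, 0.111 for Mylk and 0.0284 for Smtn. Leaving out each mouse gave -0.0379 to 0.00338 for Acta2 and -0.0389 to 0.0140 for Synpo2. Among pathway genes, differences between the genotypes near 0 changed sign: Tln1 to -0.00705 without WT 1 and WT 8 and -0.0110 with Ovgp1 as a covariate, Casq2 to -0.0467 and Mkl2 to -0.0326 with Cyp17a1 as a covariate, and Mkl2 to -0.0621 without the 4 mice. Leaving out each mouse gave -0.0172 to 0.107 for Casq2 and -0.0228 to 0.0704 for Mkl2. With 7 and 8 mice, the widest interval of the 10 differences, that of Des, ran from -1.34 to 0.13 on the log2 scale.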
